A study of Homo sapiens with 28 samples.

Results

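Chromatin immunoprecipitation followed by sequencing with an antibody against endogenous ZHX2 was compared between hypoxia and normoxia in T47D cells, a long-established line derived from a luminal breast tumour. Each ZHX2 group held 2 samples, one group from hypoxia (kept in a hypoxia workstation and fixed there) and the other from normoxia, and the authors deposited 1 list of peaks per group. The oxygen level and the length of treatment are not given in the sources used here. A peak on chromosomes 1 to 22 or X was called shared when it overlapped a peak of the other list by at least 1 bp, and hypoxia-only or normoxia-only when it overlapped none. This gave 23465 hypoxia-only peaks, 5462 normoxia-only peaks and shared sites that count as 8878 peaks in the hypoxia list and 9124 in the normoxia list. Together these are the 46929 endogenous ZHX2 peaks, out of 349107 in the 8 lists of the series. The other lists used for comparison are CTCF and H3K27ac in both conditions and Flag-tagged WT ZHX2 in hypoxia.

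ZHX2 is a nuclear protein with zinc fingers and homeodomains that acts as a transcriptional regulator. It is known as a substrate of VHL, the ubiquitin ligase subunit that also targets the hypoxia-inducible factors, and VHL recognises hydroxylated proteins, a modification that needs oxygen. A peak in such an experiment marks a stretch of chromatin recovered more often than background, and its fold is the authors' enrichment over that background. The files hold no value per sample and no read depth, so there is no replicate check, no test between the conditions is given, and a longer list cannot be told apart from a deeper or cleaner experiment. Intervals beside shares are 95% Wilson intervals and take in the counting of peaks alone. The label of the cell line was set against markers at gene starts. A peak in either list lay at the start of 8 of 9 luminal markers, 2 of 5 basal markers and 1 of 7 immune markers with a listed start, against 53.7% of all protein-coding genes with one.

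Promoters are printed for each class, taken from its strongest peaks whose ZHX2 summit lies inside a listed start window. Stronger peaks of each class lay elsewhere, and only 4.61% of normoxia-only peaks overlapped a start window, so the examples do not stand for a whole class. The promoters are RefSeq windows of GRCh38.p14 from 250 bases before to 50 bases after an annotated start. They are read 5′ to 3′ on the strand of the gene. Capitals mark 12 short words searched on both strands, namely the hypoxia response core ACGTG and its variant GCGTG, the E-box CACGTG, the GC box GGGCGG, the NFY-type word CCAAT, the ETS-type word CCGGAAG, the CREB-type word TGACGTCA, the AP-1-type word TGACTCA, the TATA-box word TATAAA, the NRF1-type word GCGCATGCG, the YY1-type word AAGATGGCG and the CTCF-type word AGGGGGC. The response core lies inside the E-box, and neighbouring matches run together in the capitals. The hypoxia-only examples are TMEM80 (chr11:695566-695865, plus strand) and MTMR3 (chr22:29882924-29883223, plus strand), the shared ones B9D2 (chr19:41364100-41364399, minus strand) and VPS37B (chr12:122896075-122896374, minus strand), and the normoxia-only ones PIGQ (chr16:569718-570017, plus strand) and SH3BGRL3 (chr1:26279836-26280135, plus strand).
TMEM80: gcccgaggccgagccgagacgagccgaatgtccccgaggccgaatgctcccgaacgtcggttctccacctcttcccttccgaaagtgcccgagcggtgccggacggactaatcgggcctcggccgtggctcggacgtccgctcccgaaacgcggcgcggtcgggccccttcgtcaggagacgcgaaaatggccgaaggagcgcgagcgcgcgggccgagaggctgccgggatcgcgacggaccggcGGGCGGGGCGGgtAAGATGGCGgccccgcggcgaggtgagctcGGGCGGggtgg
MTMR3: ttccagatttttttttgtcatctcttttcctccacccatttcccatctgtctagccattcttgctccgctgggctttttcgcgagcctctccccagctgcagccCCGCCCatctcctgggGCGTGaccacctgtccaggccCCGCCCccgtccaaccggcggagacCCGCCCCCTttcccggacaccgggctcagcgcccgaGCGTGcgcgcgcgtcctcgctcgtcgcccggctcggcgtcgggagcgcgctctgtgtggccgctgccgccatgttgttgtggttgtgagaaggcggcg
B9D2: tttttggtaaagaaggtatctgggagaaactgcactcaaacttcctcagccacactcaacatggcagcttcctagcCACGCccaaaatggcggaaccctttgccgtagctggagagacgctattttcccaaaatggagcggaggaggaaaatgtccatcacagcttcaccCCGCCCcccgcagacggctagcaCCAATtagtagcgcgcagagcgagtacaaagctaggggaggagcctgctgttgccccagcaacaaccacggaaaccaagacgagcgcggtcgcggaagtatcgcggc
VPS37B: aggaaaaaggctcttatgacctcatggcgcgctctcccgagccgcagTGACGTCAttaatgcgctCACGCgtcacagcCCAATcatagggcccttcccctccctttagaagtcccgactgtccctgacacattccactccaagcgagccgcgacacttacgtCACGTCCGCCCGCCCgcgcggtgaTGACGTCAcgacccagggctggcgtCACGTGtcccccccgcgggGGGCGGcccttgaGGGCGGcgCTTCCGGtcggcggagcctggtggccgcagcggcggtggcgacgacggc
PIGQ: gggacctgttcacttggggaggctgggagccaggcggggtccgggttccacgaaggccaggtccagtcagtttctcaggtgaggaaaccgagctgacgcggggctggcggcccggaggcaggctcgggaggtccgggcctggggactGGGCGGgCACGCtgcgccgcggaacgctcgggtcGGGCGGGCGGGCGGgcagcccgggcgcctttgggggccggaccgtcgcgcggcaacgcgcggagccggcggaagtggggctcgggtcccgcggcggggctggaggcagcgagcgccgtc
SH3BGRL3: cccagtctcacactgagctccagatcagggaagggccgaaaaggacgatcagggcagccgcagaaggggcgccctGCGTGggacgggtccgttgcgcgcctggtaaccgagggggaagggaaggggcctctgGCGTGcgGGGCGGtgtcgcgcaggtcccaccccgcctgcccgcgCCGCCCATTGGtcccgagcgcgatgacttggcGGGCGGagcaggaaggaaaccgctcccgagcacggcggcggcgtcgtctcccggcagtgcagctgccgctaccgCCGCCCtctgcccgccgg

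TMEM80, with a hypoxia-only fold of 11.6, carries GGGCGG and the YY1-type word AAGATGGCG close to its start. MTMR3, which encodes a phosphoinositide phosphatase and had a hypoxia-only fold of 10.4, carries GGGCGG on the reverse strand and GCGTG. VPS37B, a subunit of the ESCRT-I sorting complex, had a shared peak with a fold of 53.7 in the hypoxia list and 32.3 in the normoxia list, and carries TGACGTCA, the CREB-type palindrome, along with CACGTG. PIGQ, an enzyme of GPI-anchor synthesis, and SH3BGRL3 had normoxia-only folds of 6.33 and 5.22, and GGGCGG, the GC box, is the most frequent word in both windows. A match is a description of letters and not evidence of a bound factor.

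Hypoxia-only peaks made up 72.6% of the hypoxia list (95% interval 72.1 to 73.0), and normoxia-only peaks made up 37.4% of the normoxia list (36.7 to 38.2). Both condition-only classes were narrow and weak. The median width was 304 bp for hypoxia-only peaks and 245 bp for normoxia-only peaks, against 592.5 bp and 368 bp for shared peaks in the hypoxia and normoxia lists. The median fold was 3.15 for hypoxia-only peaks and 3.14 for normoxia-only peaks, and at shared peaks it was 4.19 in hypoxia and 3.54 in normoxia. A fold of at least 5 was reached by 5.58% of hypoxia-only peaks, 3.35% of normoxia-only peaks, 33.3% of shared peaks in the hypoxia list and 17.9% of those in the normoxia list. The upper ends differed in the opposite way. The strongest hypoxia-only peak had a fold of 13.1 and only 4 reached 10, whereas 34 normoxia-only peaks reached 10 and the strongest had a fold of 155.

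**Figure D1:**
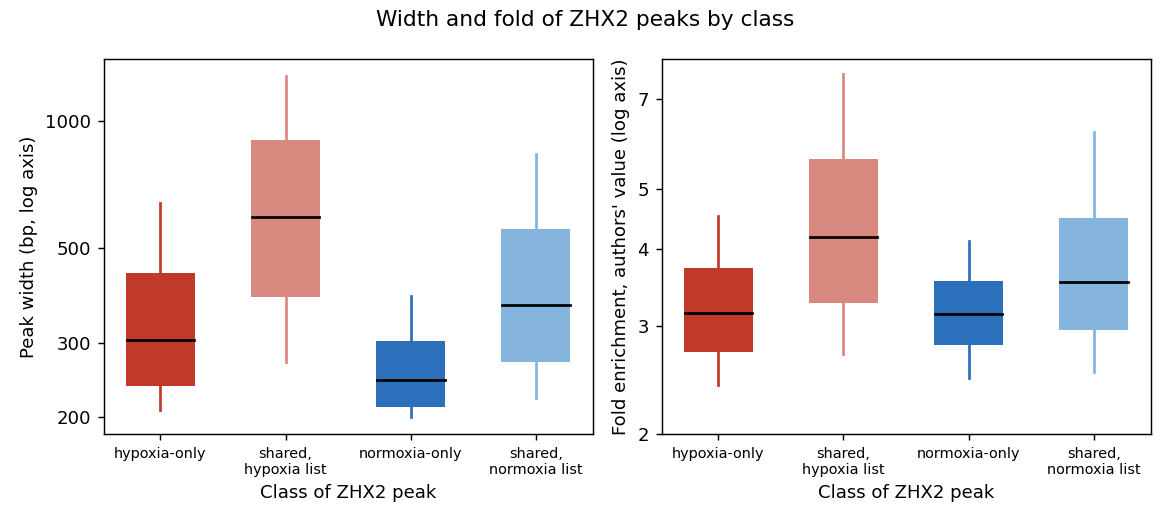
Width in bp (left) and the authors' fold enrichment (right), both on log axes, for the 4 classes of ZHX2 peak; boxes span the 25th to 75th percentile, black lines are medians and thin lines run from the 10th to the 90th percentile. Hypoxia-only and normoxia-only peaks have nearly the same median fold (3.15 and 3.14), and shared peaks are wider in both lists.

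Most shared sites were single pairs. In 7936 cases 1 hypoxia peak met 1 normoxia peak, with a median overlap of 312 bp, and the summits lay a median of 65 bp apart. The hypoxia peak was the wider one in 76.4% of these pairs, with median widths of 578 bp in hypoxia and 364 bp in normoxia. Few calls sat at the edge of the rule. Only 70 pairs overlapped by less than 50 bp, while 85 hypoxia-only peaks (0.362%) and 67 normoxia-only peaks (1.23%) lay less than 50 bp from the other list.

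Hypoxia-only peaks were usually far from any normoxia peak. The median gap was 37.0 kb, 10.5% lay within 1 kb and 29.7% within 10 kb of a normoxia peak, and 481 lay more than 1 Mb away. Normoxia-only peaks lay a median of 14.7 kb from the nearest hypoxia peak, with 17.0% within 1 kb, 43.1% within 10 kb and 4 beyond 1 Mb. The shorter normoxia-only distance goes with the longer hypoxia list. With the hypoxia list reduced to the length of the normoxia list by score, the medians were 32.6 kb for hypoxia-only peaks and 30.4 kb for normoxia-only peaks.

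ZHX2 peaks gathered along chromosomes. With peaks joined across gaps of up to 12.5 kb, 7066 clusters of at least 2 peaks formed, 1001 of them with 5 or more and 199 with 10 or more. Hypoxia-only peaks alone made up 2357 of these clusters (33.4%), hypoxia-only with shared peaks made up 2249 (31.8%), and normoxia-only peaks alone made up 135 (1.91%). Of hypoxia-only peaks 41.1% (40.4 to 41.7) were single, of shared peaks 32.3% and of normoxia-only peaks 47.03% (45.7 to 48.4). When summits within 250 bp defined sharing, the order of the condition-only classes turned, with 38.7% of hypoxia-only and 36.1% of normoxia-only peaks single. The same share of each condition-only class, 28.8%, lay in a cluster with a shared peak.

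The cluster richest in hypoxia-only peaks spanned chrX:115843366-115889115 at the lncRNA genes DANT2 and DANT1, which flank the macrosatellite DXZ4. It held 44 peaks in the hypoxia list and 20 in the normoxia list, and H3K27ac gave 3 domains there in hypoxia and 16 in normoxia. A count of domains gives no covered length, and the placing of reads in a macrosatellite is uncertain. The second cluster lay over HOXC13 to HOXC4, homeobox genes of body patterning (chr12:53938266-54035139), with 36 peaks in hypoxia and 14 in normoxia. The third covered the 45S ribosomal RNA units RNA45SN3 and RNA45SN1 on chromosome 21, with 34 peaks in hypoxia and 16 in normoxia at low median folds of 1.64 and 1.59. Clusters at single genes followed. MED13L, a Mediator kinase-module subunit, had 27 peaks in hypoxia and 10 in normoxia, and the nuclear RNA genes NEAT1 and MALAT1 shared a cluster of 24 and 10.

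The 2 clusters with the most shared peaks were arrays of small RNA genes. The 5S ribosomal RNA array from RNA5S1 to RNA5S17 (chr1:228608465-228648452) had 40 peaks in the hypoxia list and 33 in the normoxia list. CTCF gave 1 peak there in hypoxia and 21 in normoxia, counts that give no covered length. The U2 small nuclear RNA array at RNU2-1 (chr17:43231480-43305758) had 37 and 26 ZHX2 peaks. A cluster of protein-coding genes on chromosome 9, among them GRIN1 and NDOR1, came next with 32 and 19, followed by the DANT2 and DANT1 cluster and one inside GSE1 with 24 and 30. The sixth, an array of 22 tRNA genes (chr1:161440825-161472218), had 17 and 13, with no H3K27ac domain in either condition. Over all such genes, within 250 bp, 33.9% of 443 tRNA genes had a hypoxia peak and 22.1% a normoxia peak. The shares were 35.7% and 27.3% for 154 snRNA genes and 61.2% and 59.2% for 49 rRNA genes, but 2.26% and 1.67% for 1196 snoRNA genes. Copies in such arrays are near-identical, so reads cannot be placed among them with certainty. Of the clusters ranked by normoxia-only peaks, the first was the repeat of DUX4L genes (chr4:190068811-190092060), with 12 peaks in hypoxia and 19 in normoxia, followed by a cluster at MROH1, BOP1 and SCX on chromosome 8, with 2 and 9.

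The balance of the classes differed between chromosomes. The hypoxia list was 1.89 times as long as the normoxia list on chromosome 8 and 3.44 times as long on chromosome 2. Normoxia-only peaks made up 51.4% of the normoxia list on chromosome 8 and 19.9% on X. Scaled to the CTCF peaks of the same condition, hypoxia-only peaks ranged from 175 per 1000 on X to 436 per 1000 on chromosome 19, and normoxia-only peaks from 12.02 per 1000 on X to 104 per 1000 on chromosome 8. Within chromosomes the classes also differed across boundaries chosen after the values were seen. At each boundary all 3 classes differed in the same direction. On chromosome 8 there were 7 normoxia-only peaks below 30 Mb (8.40 per 1000 CTCF peaks) and 402 above it (129 per 1000). Hypoxia-only peaks stood at 199 and 356 per 1000 there, and shared peaks at 39.5 and 127. On chromosome 1 the normoxia-only class stood at 23.8 per 1000 below 120 Mb and 82.5 per 1000 above it. Hypoxia-only peaks stood at 269 and 339 there, and shared peaks at 94.0 and 156. On chromosome 6 the normoxia-only class stood at 57.7 per 1000 below 60 Mb and 12.6 per 1000 above it. Hypoxia-only peaks stood at 339 and 210 there, and shared peaks at 147 and 53.3. Copy number in T47D was not analysed here, and its part in these values was not tested.

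**Figure D2:**
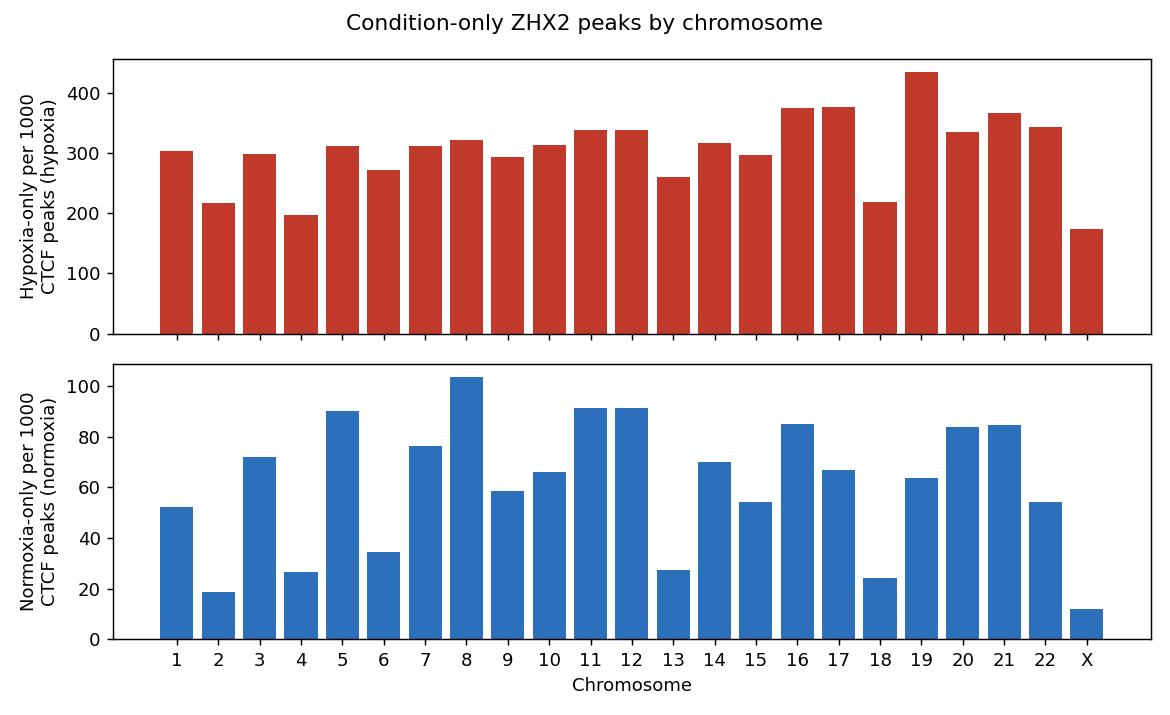
Hypoxia-only peaks per 1000 hypoxia CTCF peaks (top) and normoxia-only peaks per 1000 normoxia CTCF peaks (bottom) on each chromosome; bars start at 0 and the axes differ. Hypoxia-only peaks range from 175 on X to 436 on chromosome 19, and normoxia-only peaks from 12.02 on X to 104 on chromosome 8.

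Most peaks of every class lay inside genes or between them, and the share at gene starts was highest for shared peaks and lowest for normoxia-only peaks. Away from chromosome 8, for which no starts were listed, 20.6% of hypoxia-only peaks (20.1 to 21.2), 41.8% of shared peaks in the hypoxia list (40.7 to 42.8) and 4.61% of normoxia-only peaks (4.07 to 5.22) overlapped the window around a protein-coding start. Another 39.9% of hypoxia-only, 32.7% of shared and 49.6% of normoxia-only peaks lay inside a protein-coding gene, and 28.3%, 18.1% and 32.5% lay between genes. The median distance to a start was 15.8 kb for hypoxia-only peaks, 1.47 kb for shared peaks and 35.7 kb for normoxia-only peaks. Within 1 kb of a start, 51.3% of hypoxia-only peaks but 34.7% of normoxia-only peaks were on the upstream side. Averaged over 10 deciles of score, the shares at starts were 23.8% for hypoxia-only and 32.0% for shared peaks, so the gap narrowed at matched score. The share of normoxia-only peaks at starts was 9.24% with lists of equal length and 10.6% when summits within 250 bp defined sharing.

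**Figure D3:**
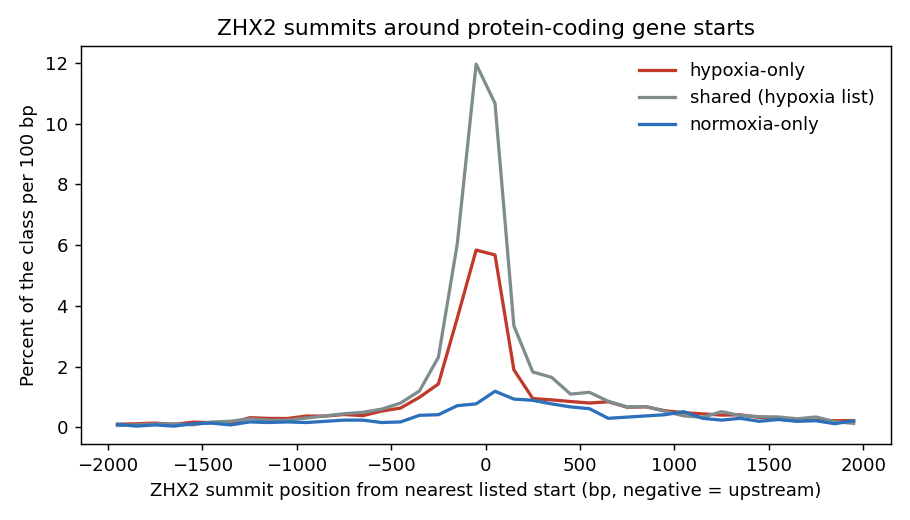
Position of ZHX2 summits in bp from the nearest listed protein-coding start (negative is upstream), as percent of each class per 100 bp. Shared summits of the hypoxia list reach 11.96% and hypoxia-only summits 5.84% in the 100 bp before the start, and normoxia-only summits reach 1.19% in the 100 bp after it.

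Of 15812 protein-coding genes with a listed start, 4873 (30.8%) had a peak in the hypoxia list alone, 3400 (21.5%) in both lists, 224 (1.42%) in the normoxia list alone and 7315 (46.3%) in neither. Alone means that no peak of the other list touched a listed start window of the gene, so it takes in shared peaks whose partner lay outside the window. A hypoxia-only peak by class was present at 4469 of the 4873 genes (28.3% of all) and a normoxia-only peak at 178 of the 224 (1.13% of all). Any hypoxia peak was found at 52.3% of starts and any normoxia peak at 22.9%. With lists of equal length, 2895 starts carried hypoxia peaks alone and 636 carried normoxia peaks alone.

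The strongest hypoxia-only peaks at starts were at ZNF444, a zinc finger gene, with a fold of 13.1, TMEM80 with 11.6 and MTMR3 with 10.4. BCL11A, a zinc finger repressor known for silencing fetal globin, had a hypoxia-only peak with a fold of 9.79, and a separate start of the gene had a normoxia peak with a fold of 3.40. RPL13A, a protein of the large ribosomal subunit, had 9.22, ZNRF1, a ubiquitin ligase, had 9.21, and SASS6, a centriole assembly protein, shared a peak of 9.23 with TRMT13. RGPD6, at 9.65 and with a normoxia peak of 3.89 at a start, belongs to a family of near-identical copies and is uncertain. None of these reached the strongest shared peaks. FUZ, a gene of ciliogenesis, had folds of 80.9 in hypoxia and 18.8 in normoxia. MORF4L1, a chromatin protein of acetyltransferase complexes, had 69.1 and 47.9, and the start shared by TMEM91 and B9D2 had 60.8 and 25.7.

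Normoxia-only peaks at starts were weaker. RUNX3, a Runt-family transcription factor, had a fold of 6.67, LRRC4 had 6.43, PIGQ had 6.33 and RELN, the secreted glycoprotein reelin, had 5.95, and the hypoxia list had no peak at these 4 starts. MATK, a tyrosine kinase, had a normoxia-only fold of 6.19, SEPTIN9, a cytoskeletal GTPase, 5.56, and TCF4, a basic helix-loop-helix factor, 5.46. Each of these 3 genes also had a hypoxia peak at one of its starts. SEPTIN9 also had a stronger normoxia peak at a start, shared by class, with a fold of 8.97.

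Hypoxia-induced genes stood first among the lists for peaks found in hypoxia alone. Of 35 with a listed start, 23 had a peak in the hypoxia list alone, 6 in both, 1 in normoxia alone and 5 in neither. In 21 of the 23 the peak was hypoxia-only by class, and in the other 2, ANKRD37 and BHLHE40, it was shared, with folds of 8.28 and 5.64. The glycolytic enzyme ENO1 had a hypoxia-only fold of 7.11, the MYC antagonist MXI1 7.10, the histone demethylase KDM4C 5.20 and PDK1, which restrains pyruvate entry into mitochondria, 5.14. PGAM1, another glycolytic enzyme, had a peak in the normoxia list alone, with a low fold of 2.18 (percentile 3.07 of that list). Splicing factor genes showed the other pattern. Of 33, 24 had peaks in both lists and 6 in hypoxia alone, 5 of them hypoxia-only by class, among them SRSF10 with a hypoxia-only fold of 5.57 and SNRNP70 with 4.34. These lists were compared with all starts as a description, with no test. All starts stood at 30.8% in hypoxia alone (28.3% hypoxia-only by class), 21.5% in both and 1.42% in normoxia alone.

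**Figure D4:**
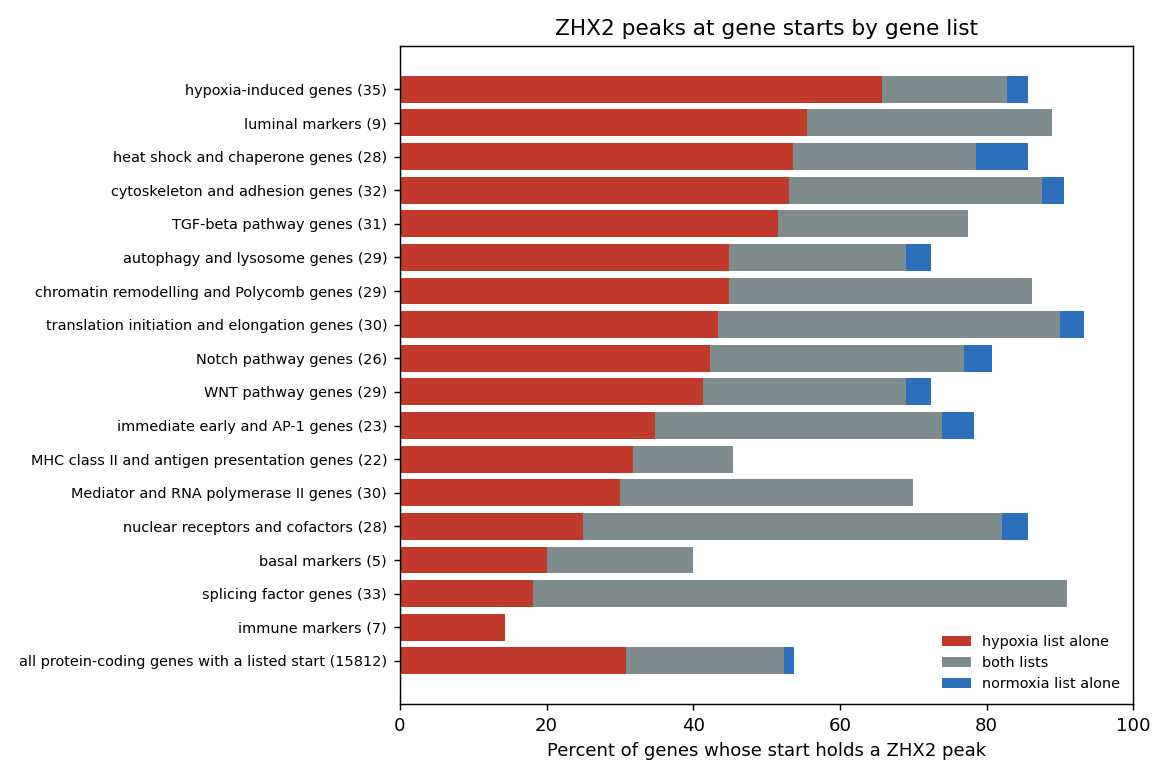
Percent of genes in each list whose start held a ZHX2 peak in the hypoxia list alone, in both lists or in the normoxia list alone, with the number of genes with a listed start in brackets and all protein-coding genes in the lowest bar. Hypoxia-induced genes have the longest bar for hypoxia alone (23 of 35) and splicing factor genes the longest for both lists (24 of 33).

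Genes of protein folding and stress were mixed. They are set against all starts, with 30.8% in hypoxia alone (28.3% hypoxia-only by class), 21.5% in both and 1.42% in normoxia alone. Of 28 heat shock and chaperone genes, 15 (53.6%) had a peak in hypoxia alone (14 hypoxia-only by class), 7 (25%) in both and 2 (7.14%) in normoxia alone. The chaperonin subunit CCT4 had a hypoxia-only fold of 6.39, the disulfide isomerase PDIA6 4.83 and calreticulin, CALR, 4.78. HSPA5, the chief chaperone of the endoplasmic reticulum, and PDIA4 were the 2 in normoxia alone, with folds of 4.98 and 2.98. Of 23 immediate early and AP-1 genes, 8 (34.8%) were in hypoxia alone and 6 (26.1%) by class, both near the shares of all starts. Another 9 (39.1%) were in both and 1 in normoxia alone. FOS had a hypoxia-only fold of 6.45, IER2 4.87 and the phosphatase DUSP1 4.46, while KLF2 had a normoxia peak of 2.90. Autophagy and lysosome genes had 13 of 29 (44.8%) in hypoxia alone (12 by class), 7 (24.1%) in both and 1, WIPI2 with a fold of 3.07, in normoxia alone. The ATG8-family genes GABARAP and GABARAPL1 had hypoxia-only folds of 5.75 and 5.53.

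Regulators of chromatin and transcription had peaks in both lists at 41.4% (chromatin remodelling and Polycomb), 40% (Mediator and RNA polymerase II) and 57.1% (nuclear receptors and cofactors) of their starts, against 21.5% of all starts. In hypoxia alone they stood at 44.8%, 30% and 25% in the same order, against 30.8% of all starts. Hypoxia-only by class, the shares were 31.0%, 26.7% and 21.4%, near or below the 28.3% of all starts. Chromatin remodelling and Polycomb genes had 13 of 29 in hypoxia alone, 12 in both and 0 in normoxia alone, near the 1.42% of all starts. The 13 include 9 with a hypoxia-only peak by class and 4 with a shared one, ARID1B, CHD1, EED and KMT2C. EZH2, the Polycomb methyltransferase, had a hypoxia-only fold of 5.95. The SWI/SNF ATPases SMARCA2 and SMARCA4 had 5.11 and 5.01. Mediator and RNA polymerase II genes had 9 of 30 in hypoxia alone (8 by class) and 12 in both, with MED24 at 5.63 and POLR2B at 5.25. Of 28 nuclear receptors and cofactors, 16 were in both lists and 7 in hypoxia alone (6 by class). The retinoic acid receptor RARA had a hypoxia-only peak of 4.92 and also a shared one of 5.07, PPARD had a hypoxia-only fold of 4.77, and the thyroid hormone receptor THRA was in normoxia alone at 2.74.

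Signalling lists had a peak in hypoxia alone more often than all starts. TGF-beta, Notch and WNT genes stood at 51.6%, 42.3% and 41.4%, against 30.8% of all starts. Hypoxia-only by class, they stood at 45.2%, 42.3% and 34.5%, against 28.3%. In both lists they stood at 25.8%, 34.6% and 27.6%, against 21.5%, so TGF-beta and WNT genes were near the share of all starts there. In normoxia alone all starts stood at 1.42%. TGF-beta pathway genes had 16 of 31 in hypoxia alone (14 by class), 8 in both and 0 in normoxia alone, with the corepressor TGIF1 at 5.95, SMAD1 at 5.30 and the ligands BMP4 at 4.80 and TGFB3 at 4.29. Notch pathway genes had 11 of 26 in hypoxia alone (all 11 by class) and 9 in both, with the gamma-secretase subunit NCSTN at 5.39, HEY2 at 4.67 and RBPJ, the DNA-binding partner of Notch, at 4.35. RFNG, a glycosyltransferase that modifies Notch, was in normoxia alone at 2.96. WNT pathway genes had 12 of 29 in hypoxia alone (10 by class) and 8 in both, led by TCF7L2 at 5.14 and the ubiquitin ligase RNF43 at 4.03, and the inhibitor DKK1 was in normoxia alone at 2.38. Cytoskeleton and adhesion genes had 17 of 32 (53.1%) in hypoxia alone, 14 of them (43.8% of the list) by class, and 11 (34.4%) in both. TUBB6 stood at 7.50, talin, TLN1, at 6.53 and ITGB1 at 4.97, and ACTN4 was in normoxia alone at 4.20.

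Of all starts, 30.8% had a peak in hypoxia alone (28.3% hypoxia-only by class), 21.5% in both and 1.42% in normoxia alone. Translation genes had 13 of 30 (43.3%) in hypoxia alone (11 by class), 14 (46.7%) in both and 1 in normoxia alone, with EIF5A at a hypoxia-only fold of 6.70. The 1 is NCL, whose normoxia peak at the start, with a fold of 4.47, is shared by class. MHC class II and antigen presentation genes had 7 of 22 (31.8%) in hypoxia alone, near the share of all starts, and 5 (22.7%) by class. Another 3 (13.6%) were in both, a lower share than among all starts. Their hypoxia-only peaks included RFXAP at 4.16, RFX5 at 3.27 and RFXANK at 3.06, the 3 subunits of the RFX complex that binds class II promoters. Luminal markers had 5 of 9 (55.6%) in hypoxia alone (4 by class) and 3 (33.3%) in both, with KRT8 at 3.54, the progesterone receptor gene PGR at 3.22 and the estrogen receptor gene ESR1 at 2.92. Immune markers had 1 of 7 (14.3%) in hypoxia alone, CD8A at 3.23.

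The strongest normoxia-only peaks lay at pseudogenes and at antigen receptor segments, a grouping made after the values were seen. Of the 34 with a fold of at least 10, 20 (58.8%) had a pseudogene within 250 bp, 8 (23.5%) had an immunoglobulin or T cell receptor segment, and 0 overlapped a protein-coding start. That 0 is near the 4.27% of all normoxia-only peaks, chromosome 8 included, that overlapped one. The strongest was at IGHV2-26, a heavy chain variable segment, with a fold of 155, followed by the constant regions IGKC with 63.1 and IGHG1 with 60.3. The pseudogenes included RPL13AP5 at 24.5, GAPDHP1 at 23.8 and PTMAP9 at 23.03, copies derived from abundantly transcribed genes. Protein-coding genes in this group also encode abundant products, with NCL at 16.3, B2M at 12.5, GAPDH at 12.5, EEF2 at 11.4 and HLA-B at 10.9.

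The other classes had lower shares. At a fold of at least 5, 33.9% of 183 normoxia-only peaks had a pseudogene within 250 bp, against 2.14% of 1309 hypoxia-only peaks, 3.38% of shared peaks in the hypoxia list and 4.35% in the normoxia list. Receptor segments were near 0 hypoxia-only and 16 normoxia-only peaks at that fold. The IGH locus held 9 hypoxia-only peaks, with a highest fold of 6.41, and 14 normoxia-only peaks. The TRB locus held 1 and 9. A normoxia-only peak lay inside the span of 6 of 27 antigen presentation genes (22.2%), with CD74 at a fold of 9.71, and of 0 of 12 immune markers, against 11.7% of all protein-coding genes. The median span was 7.19 kb for antigen presentation genes and 9.41 kb for immune markers, against 24.2 kb for all. Reads from pseudogenes and their parent genes can be misplaced between near-identical copies, so these positions are uncertain, and the part of mapping, of other DNA or of another cell type in these peaks was not tested.

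**Figure D5:**
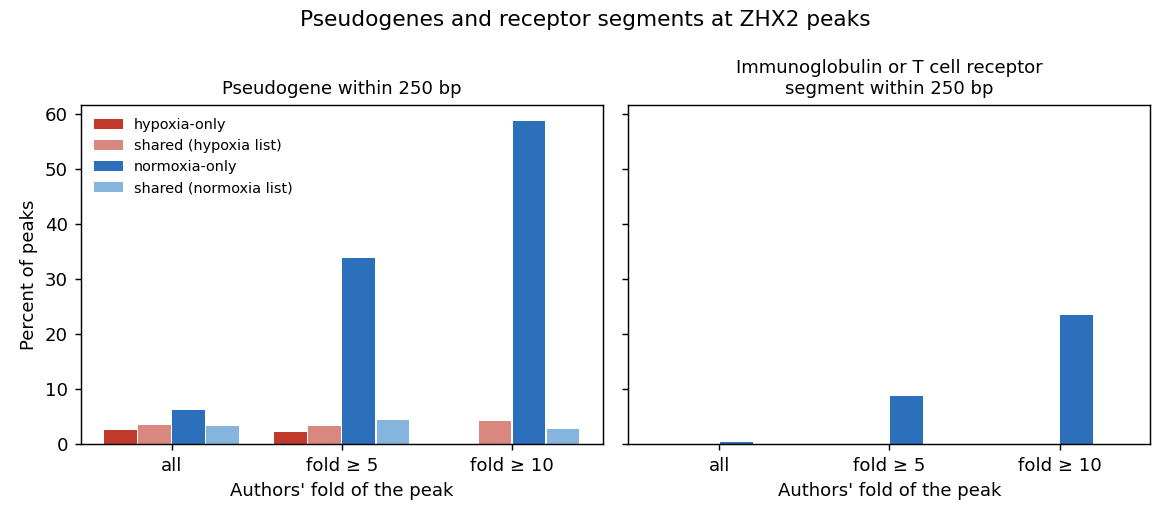
Percent of peaks with a pseudogene (left) or an immunoglobulin or T cell receptor segment (right) within 250 bp, for all peaks and for those with an authors' fold of at least 5 or 10, by class. Normoxia-only peaks with a fold of at least 10 stand at 58.8% and 23.5%, while the 4 hypoxia-only peaks of that fold stand at 0 in both panels.

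Inside gene spans, 44.5% of protein-coding genes had a hypoxia-only peak, 30.1% a shared one and 11.7% a normoxia-only one. GSE1, a corepressor-associated gene, held the most of each class, with 47 hypoxia-only, 44 shared and 13 normoxia-only peaks over 507 kb. BCOR, a Polycomb-associated corepressor, had 21 hypoxia-only and 3 normoxia-only peaks, ANKRD11 had 18 and 5, CBFA2T3 18 and 3, and MED13L 17 and 8. CACNA1H, a calcium channel gene, went the other way with 3 hypoxia-only and 7 normoxia-only peaks, as did EHMT1, a histone methyltransferase gene, with 4 and 7. HIF1A, the oxygen-regulated subunit of HIF-1, held 13 shared peaks in 52.7 kb and no condition-only peak. The highest fold there was 146 in hypoxia and 376 in normoxia, each the highest among the shared peaks of its list. These folds belong to different sites. The site with 146 in hypoxia had 269 in normoxia, and the site with 376 in normoxia had 100 in hypoxia. The HIF1A start had folds of 4.52 in hypoxia and 2.48 in normoxia. A shared peak at the pseudogene HIF1AP1 had 61.7 in hypoxia and 133 in normoxia. Reads can be misplaced between a gene and its pseudogene, and the source of these folds was not tested. ZHX2 itself held 3 hypoxia-only peaks and 1 shared peak with a fold of 28.6, and VHL held 1 of each with folds of 3.48 and 3.28.

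Most hypoxia-only peaks on acetylated chromatin lay in domains without a normoxia ZHX2 peak. Of 16679 hypoxia-only peaks on a hypoxia H3K27ac domain (71.1% of the class), 24.4% (23.8 to 25.1) were in a domain that also held a normoxia ZHX2 peak. Of the 1170 normoxia-only peaks on a normoxia H3K27ac domain (21.4% of the class), 63.4% (60.6 to 66.1) were in a domain that also held a hypoxia ZHX2 peak. The 24.4% and the 63.4% were taken against lists of unlike length, 14586 normoxia and 32343 hypoxia peaks. With lists of equal length the 24.4% became 22.3%, and the 63.4% was not computed again. By domain, 10219 of 46713 hypoxia H3K27ac domains (21.9%) held hypoxia ZHX2 alone, 6305 (13.5%) held both and 486 (1.04%) held normoxia ZHX2 alone. Domains with both were the widest, with a median of 3089 bp and an H3K27ac fold of 13.7. Those with hypoxia ZHX2 alone had 2372 bp and 9.98, those with normoxia ZHX2 alone 1210 bp and 4.27, and those with neither 883 bp and 3.45.

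CTCF and tagged ZHX2 overlapped shared peaks most often and normoxia-only peaks least often. A CTCF summit of the same condition lay within 100 bp of the ZHX2 summit for 16.5% of hypoxia-only peaks (16.1 to 17.0), 22.6% of shared peaks in the hypoxia list and 5.31% of normoxia-only peaks (4.75 to 5.94). The WT Flag list, made in hypoxia, overlapped 48.6% of hypoxia-only, 68.9% of shared and 11.8% of normoxia-only peaks. Averaged over 10 deciles of score, its shares were 53.7% for hypoxia-only and 56.8% for shared peaks, so most of the gap between these classes was gone at matched score. The median distance to a CTCF summit was 1.43 kb for hypoxia-only, 0.455 kb for shared and 6.65 kb for normoxia-only peaks.

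Within the lists, shared sites ranked higher in hypoxia. Over 8646 pairs of overlapping peaks, the median percentile of fold was 76.4 in the hypoxia list and 60.3 in the normoxia list, and at 3045 pairs on gene starts it was 84.1 and 62.8. The median difference over pairs was 7.81 percentile points, but 0.638 with lists of equal length, and ranks from lists of different lengths show no change. Among starts, the pairs ranked far higher in hypoxia included FSD1L, with percentiles of 98.5 in hypoxia and 0.857 in normoxia, GABPB1, a subunit of an ETS-type factor, with 96.3 and 1.72, and TOMM20, a mitochondrial import receptor, with 96.4 and 2.58. Those ranked far lower included ZBTB46, a zinc finger factor, with 7.81 in hypoxia and 95.4 in normoxia, QTMAN with 5.80 and 91.4, and the chaperone HSP90AB1 with 3.05 and 84.6. HSP90AB1 also had a hypoxia-only peak at a start, with a fold of 4.58.

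Of the 12 promoter words, AAGATGGCG, the YY1-type word, differed most between hypoxia-only and shared windows. It lay in 2.55% of 3495 windows with a hypoxia-only summit (2.07 to 3.12), 9.84% of 2489 windows with a shared summit of the hypoxia list (8.73 to 11.1), 1 of 128 with a normoxia-only summit (0.781%, 0.138 to 4.29) and 2.42% of all 22011 windows. TGACGTCA lay in 3.69% of hypoxia-only, 5.58% of shared and 0.781% of normoxia-only windows and 2.25% of all. CCGGAAG, the ETS-type word, stood at 22.3%, 20.7%, 16.4% and 12.8% in the same order, and ACGTG, the core of the hypoxia response element, at 28.1%, 30.1%, 28.9% and 23.03%. GGGCGG stood at 75.2%, 81.0%, 84.4% and 56.3%. In the same order, GCGTG stood at 53.8%, 58.0%, 60.2% and 42.9%, CACGTG at 10.3%, 11.8%, 14.1% and 8.32% and AGGGGGC at 21.9%, 23.3%, 21.9% and 17.4%. GCGCATGCG stood at 3.52%, 2.69%, 6.25% and 2.34%, and TGACTCA at 2.43%, 2.37%, 0.781% and 4.02%. The words CCAAT, at 31.7%, 27.3%, 32.8% and 34.7%, and TATAAA, at 4.55%, 3.54%, 3.12% and 9.49%, were no more frequent in any class than in all windows. The median GC content was 67% in hypoxia-only windows, 69.7% in shared windows, 70.3% in normoxia-only windows and 62.3% in all. Within the middle tercile of windows by GC content, AAGATGGCG lay in 2.93% of hypoxia-only and 14.2% of shared windows, against 3.33% of all.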

How the data were processed

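Tools named in the submitters' processing notes are MACS2, Bowtie2 and cutadapt, and the build is GRCh38 (hg38); versions, depth and the handling of the 2 samples per group are not given in the sources used here. The authors deposited peak lists: a score, a fold (a ratio over background), and a −log10 q per peak. They rank and describe peaks inside each list and go into no comparison of strength between lists beyond setting the authors' values side by side. Neither ZHX2 list goes below a −log10 q of 1.30. The WT Flag list holds positions alone, and the other Flag list was not used here. Overlaps, distances and clusters were computed in Python 3.11.15 with numpy 2.4.6, pandas 2.3.3 and scipy 1.17.1. The overlap and distance steps were tested on simulated data, and the clustering step was not. Gene positions and start windows came from RefSeq GRCh38.p14 tables. Listed starts covered 15812 of 19974 protein-coding genes and none on chromosome 8. The members and gene lists were chosen with earlier results of these data known. Named genes are the 8 strongest starts per class, genes of the densest clusters, the 5 genes with most peaks of each class, up to 4 members per list and class, the 5 largest rank differences each way, and ZHX2, HIF1A, VHL and CTCF, from which the text gives a part. Genes at the strongest normoxia-only peaks were named after their values were seen. The NRF1-type and YY1-type promoter words were shortened after longer forms had been looked at. Alternatives changed the overlap, the list length, the −log10 q, the gap, the window and the H3K27ac list.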

Additional observations from a re-analysis of the deposited data

How the results depend on the processing

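Only the rank difference could change sign, and it did not, while shares, distances and counts cannot be negative. With summits within 250 bp hypoxia-only peaks were single more often than normoxia-only peaks, the opposite of the order reported. No paired analysis was possible because each condition has 1 list without values per sample, and for the same reason no sample could be left out. Values that moved beyond their interval, or counts by over 1.5 times, were as follows, and the cause was not tested. Requiring 50% of the shorter peak, 26.0% of the hypoxia list and 59.6% of the normoxia list were shared, the median gaps were 35.1 kb for hypoxia-only and 11.97 kb for normoxia-only peaks, 40.2% and 43.5% of these classes were single, 43.0% of shared and 5.61% of normoxia-only peaks lay at starts, 25.9% of hypoxia-only peaks on H3K27ac shared their domain with normoxia ZHX2, and 25.02% of normoxia-only peaks lay on H3K27ac. With summits within 250 bp, shared percentages were 23.1 and 51.2, gaps 31.3 kb and 5.84 kb, single percentages 38.7 and 36.1, starts 21.6% for hypoxia-only and 10.6% for normoxia-only peaks, domain sharing 29.0% and H3K27ac 35.2%, and 736 genes had a normoxia-only peak at a start, against 243. With a −log10 q of at least 5, 67.4% of the normoxia list was shared, gaps were 55.9 kb and 15.8 kb, single percentages 47.4 (hypoxia-only), 42.0 (shared) and 48.4 (normoxia-only), starts 28.5%, 44.8% and 7.95% in that order, domain sharing 17.8% and H3K27ac 27.04%. With lists of equal length, shared percentages were 45.6 and 48.3, gaps 32.6 kb and 30.4 kb, single percentages 51.9, 47.4 and 52.6, starts 32.6%, 48.3% and 9.24%, domain sharing 22.3%, H3K27ac 31.4% and the rank difference 0.638 points. In those lists 2669 genes had a hypoxia-only peak at a start, against 4734, and 681 a normoxia-only peak, and 2895 and 636 starts had a peak in hypoxia alone and normoxia alone. Single percentages were 53.6, 44.2 and 62.2 with a gap of 5000 bp and 17.7, 12.1 and 19.1 with 50000 bp. A window 1 kb wider on each side gave starts of 30.6%, 49.8% and 11.4% and 590 genes with a normoxia-only peak. Averaging over deciles of score gave starts of 23.8% for hypoxia-only and 32.0% for shared peaks and WT Flag overlaps of 53.7% and 56.8%, and the H3K27ac list of the other condition covered 23.1% of normoxia-only peaks. The other 23 values stayed within these limits. The unknown depth limits every statement on peaks found in 1 condition.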
